A study of Mus with 4 samples.

Results

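The immunity-related GTPases described here are Irgm1, Irgm2, Igtp, Tgtp1, Tgtp2 and Iigp1, which are 6 of the 21230 genes listed for the cochlea of Otof c.1315 C > T mice. They were chosen by gene symbol after earlier results of the same 4 libraries had shown their RPKM values to lie higher with treatment, so their levels and differences are given as a description, with no test.

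All 4 libraries came from cochleae of this mutant line, in which a premature stop codon interrupts otoferlin, the calcium sensor at the synapse of inner hair cells. Of these, 2 libraries were untreated and 2 were from mice given RESTART v3. RESTART v3 combines a guide snoRNA, a DKC1 isoform and a tRNA so that the stop codon is read through, and it was carried by the AAVie vector into the inner ear through a semicircular canal at 4 weeks of age. No library of an injected control was analysed here, so the effects of injection, of the vector and of RESTART v3 cannot be told apart. The age of the untreated mice and the time from injection to collection of these cochleae are not given in the sources used here. Replicates were described as independent in the study, but the labels do not say which animals they came from, and any spread between libraries may be in part technical. Both untreated libraries carry the same name in the table and are called untreated A and untreated B, letters with no order.

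Immunity-related GTPases, also called p47 GTPases, are cytosolic enzymes that interferons strongly induce in mouse cells, with interferon gamma as the classical inducer. Effector members of the family coat the vacuoles in which parasites such as Toxoplasma live and break them open. Regulatory members sit on the membranes of the cell itself and hold the effectors inactive there. Irgm1, Irgm2 and Igtp (also named Irgm3) are the regulatory members among the 6 genes. Tgtp1, Tgtp2 (both Irgb6) and Iigp1 (Irga6) are effectors. All 6 symbols are annotated as protein-coding genes, and 5 of them lie on chromosome 11 and Iigp1 on chromosome 18.

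Levels are given in RPKM, the reads of a gene divided by its length and by the reads of the library. Here the length is the whole span of the gene, introns included, so a gene with long introns reads lower than its messenger RNA alone would. The totals used as divisors were 39650172 reads for untreated A, 56739609 for untreated B, 71144247 for RESTART v3 replicate 1 and 61040077 for RESTART v3 replicate 2. By reads recovered from the RPKM values, listed genes held 49.9% and 56.2% of the totals of untreated A and B. They held 53.7% and 26.7% of those of RESTART v3 replicates 1 and 2. On the RPKM scale most genes lay low in RESTART v3 replicate 2, whose median-of-ratios size factor was 0.634. The factor was 0.927 for untreated A, 1.32 for untreated B and 1.29 for RESTART v3 replicate 1. Levels divided by these factors are called scaled RPKM below. Untreated A stood apart from the other libraries, holding the lowest scaled value in 41.8% and the highest in 41.9% of all listed genes. Inner and outer hair cell markers were detected in all 4 libraries, with at least 34 reads for each of the 9 listed. Otof itself had 286 and 251 reads in untreated A and B and 317 and 90 reads in RESTART v3 replicates 1 and 2. In scaled RPKM, Otof was at 0.0813 and 0.0351 in the untreated and 0.0360 and 0.0243 in the RESTART v3 libraries, with overlap.

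In RPKM the regulatory GTPases stood highest of the 6 genes, an order that depends on the lengths used as divisors. In reads recovered from the RPKM values, Iigp1 was the highest in both RESTART v3 libraries. It had 5641 and 1666 reads there, against 4751 and 1626 for Irgm1. Irgm1, which acts at the Golgi and on lysosomes and is needed for normal autophagy, stood at 1.61 and 4.12 RPKM in untreated A and B, and 10.8 and 4.31 RPKM in RESTART v3 replicates 1 and 2. The groups did not overlap in Irgm1, but untreated B and RESTART v3 replicate 2 were separated by a ratio of only 1.05, and their counting intervals (exact Poisson, 95%) overlapped. After scaling, Irgm1 was at 1.74 and 3.13 in the untreated and 8.36 and 6.81 scaled RPKM in the RESTART v3 libraries, with a lowest treated value 2.18 times the highest untreated one.

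Irgm2, a regulator found at the Golgi, was at 1.85 and 2.78 RPKM in untreated A and B, and 8.31 and 3.35 RPKM in RESTART v3 replicates 1 and 2. Both treated libraries lay above both untreated ones in Irgm2, by a ratio of at least 1.20 in RPKM. The untreated libraries nearly coincided after scaling, with 1.999 and 2.11 against 6.43 and 5.29 scaled RPKM for Irgm2.

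Igtp, a regulator of the endoplasmic reticulum, was at 1.38 and 1.99 RPKM in the untreated and 6.76 and 2.76 RPKM in the RESTART v3 libraries. The groups did not overlap, and RESTART v3 replicate 1 stood 2.45 times above replicate 2 within its own group. In scaled RPKM the values of Igtp were 1.49 and 1.51 for untreated A and B and 5.23 and 4.36 for RESTART v3 replicates 1 and 2, so that the treated mean of 4.79 ± 0.613 (SD, n = 2) was 3.20 times the untreated mean of 1.50 ± 0.0156 (SD, n = 2).

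The effector GTPases started from lower RPKM values and showed larger ratios between the groups. Tgtp1 was at 0.193 and 0.329 RPKM in untreated A and B, from 53 and 129 reads, and at 1.51 and 0.722 RPKM in RESTART v3 replicates 1 and 2, from 741 and 305 reads. The treated libraries of Tgtp1 lay above the untreated ones by a ratio of at least 2.20, and after scaling they agreed closely, at 1.16 and 1.14 against 0.208 and 0.250 scaled RPKM.

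Tgtp2 was at 0.126 and 0.580 RPKM in untreated A and B, and 3.06 and 1.39 RPKM in RESTART v3 replicates 1 and 2. The groups did not overlap, yet untreated B was 4.61 times untreated A, a wider gap than the 2.20 between the treated libraries. The scaled values of Tgtp2 were 0.136 and 0.441 in the untreated and 2.37 and 2.20 in the RESTART v3 libraries.

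Iigp1, the effector best known for disrupting the Toxoplasma vacuole, had the lowest RPKM of the 6 genes in untreated A, at 0.0747 from 108 reads. That place rests on a length that could not be matched to the annotation. Iigp1 was at 0.354 RPKM in untreated B and at 2.18 and 0.749 RPKM in RESTART v3 replicates 1 and 2. No overlap was seen, with untreated A far below the rest and a lowest treated value 2.12 times untreated B. In scaled RPKM Iigp1 was at 0.0806 and 0.269 in the untreated and 1.68 and 1.18 in the RESTART v3 libraries.

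**Figure D1:**
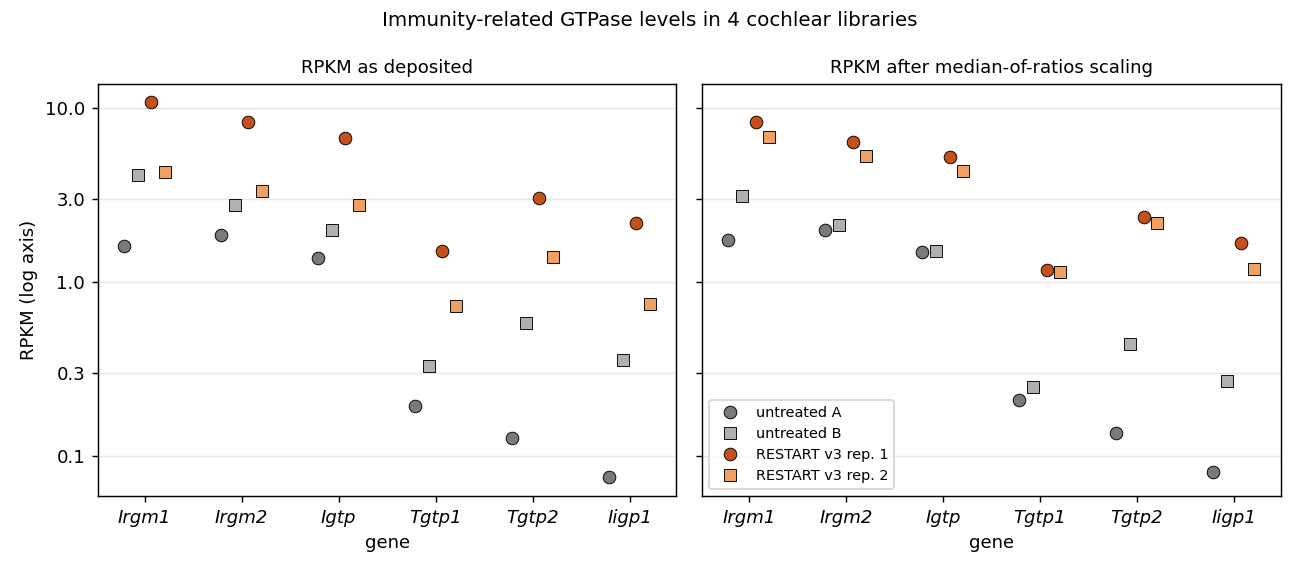
RPKM of the 6 immunity-related GTPase genes (x axis) in each library on a log axis, as deposited (left) and after median-of-ratios scaling (right). Grey points are the 2 untreated and orange points the 2 RESTART v3 libraries. Both orange points lie above both grey ones for each gene, by a ratio of only 1.05 for Irgm1 as deposited and 2.18 after scaling.

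Over the 6 genes, the treated libraries lay above the untreated ones for 6 of 6, both as deposited and after scaling. This order of the groups was found in 2.24% of all 21230 listed genes as deposited and in 16.2% after scaling. The 6 genes had been selected on this same contrast, so nothing is read from the difference. Untreated A held the lowest and RESTART v3 replicate 1 the highest value of all 6 genes on both scales. The cochlea holds many cell types, and in bulk tissue more cells that make these transcripts and more transcript per cell cannot be told apart.

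Expressed as a ratio of scaled group means, RESTART v3 over untreated, the regulatory genes stood at 3.12 (Irgm1), 2.85 (Irgm2) and 3.20 (Igtp). The effectors stood at 5.03 (Tgtp1), 7.92 (Tgtp2) and 8.20 (Iigp1). Each effector thus had a higher ratio than each regulatory gene.

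On log2(RPKM + 0.5), the scale used for testing all genes, the differences (RESTART v3 minus untreated) were 1.24 for Irgm1, 1.07 for Irgm2, 1.17 for Igtp, 1.05 for Tgtp1, 1.66 for Tgtp2 and 1.38 for Iigp1. The added 0.5 shrinks the differences of low genes, so the effectors look less apart here. On whole reads recovered from the RPKM values and scaled between libraries, the log2 differences were 1.69, 1.50 and 1.67 for Irgm1, Irgm2 and Igtp and 2.33, 3.21 and 3.26 for Tgtp1, Tgtp2 and Iigp1. The median over the 6 genes was 1.20 as deposited, 1.45 scaled and 2.01 in reads. The median over all tested genes was -0.41, -0.20 and -0.01 on the same scales. Without untreated A, untreated B alone stood for its group, and the differences in reads were 1.27, 1.46 and 1.66 for Irgm1, Irgm2 and Igtp and 2.20, 2.37 and 2.39 for Tgtp1, Tgtp2 and Iigp1. Tgtp2 and Iigp1 moved most in reads, whereas in scaled log2(RPKM + 0.5) Irgm1 moved most, from 1.50 to 1.15. As deposited, Irgm1 fell to 0.68 without untreated A. Without RESTART v3 replicate 1, the deposited differences of Irgm1, Irgm2 and Igtp were 0.62, 0.47 and 0.59, so that their size as deposited rested in large part on that library. After scaling they were 1.36, 1.18 and 1.28 without it.

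**Figure D2:**
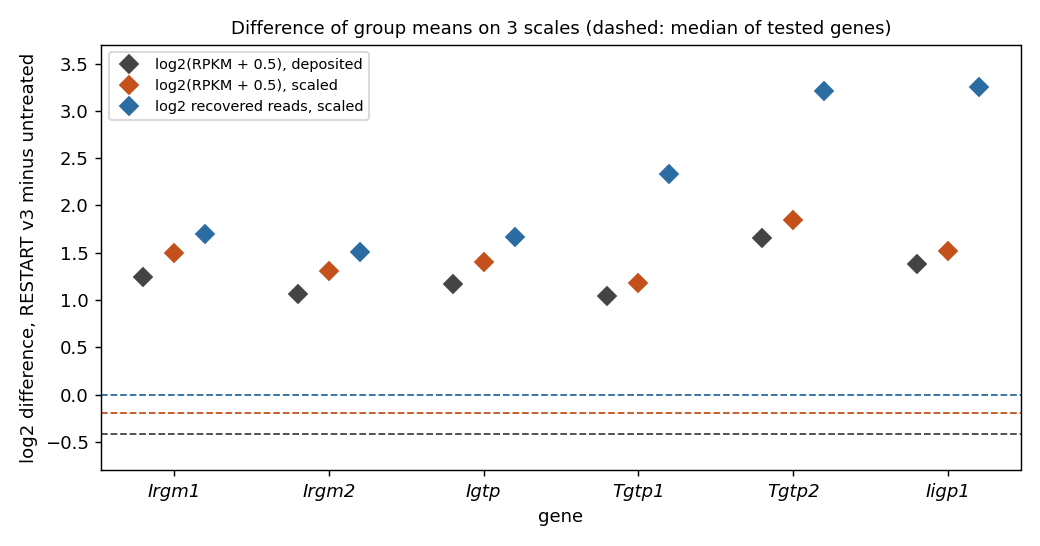
Difference of the group means (RESTART v3 minus untreated, log2) for each gene on 3 scales, shown as diamonds. Dashed lines give the median of all tested genes on each scale (-0.41, -0.20 and -0.01). The effectors Tgtp1, Tgtp2 and Iigp1 lie highest on the scale of reads, at 2.33, 3.21 and 3.26.

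In the test over all genes (limma on log2(RPKM + 0.5), Benjamini-Hochberg adjustment at 0.05), 0 of 5076 genes that reached a mean of 1 RPKM were called, or 0%. Without adjustment 72 genes had a p under 0.05, 6 of them higher and 66 lower with RESTART v3. After scaling the unadjusted number was 55, with 42 higher. With limma voom on recovered reads, 0 of 18448 genes were called and 401 had an unadjusted p under 0.05, of which 252 were higher. Irgm1, Irgm2, Igtp and Tgtp2 reached the minimum mean RPKM, while Tgtp1 (mean 0.687 RPKM) and Iigp1 (mean 0.838 RPKM) did not. All 6 passed the minimum of a mean of 10 reads for voom.

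The order of the genes by RPKM was nearly the same in all libraries. In untreated B and both RESTART v3 libraries it ran from Irgm1 through Irgm2, Igtp, Tgtp2 and Iigp1 to Tgtp1 in RPKM. The place of Iigp1 among the effectors rests on a length that could not be matched to the annotation (36449 bases, against 19019 annotated). In untreated A, Irgm2 stood above Irgm1 and Tgtp1 above Tgtp2 and Iigp1. Adjacent regulatory genes and adjacent effectors of that order were not separated by their counting intervals, whereas Tgtp1 and Iigp1 were. Iigp1 and Tgtp1 were also not separated in untreated B (ratio 1.08) or in RESTART v3 replicate 2 (ratio 1.04). In RPKM, the step from the lowest regulatory gene to the highest effector was outside counting error in every library. It also rests on the lengths used as divisors. That step was a ratio of 7.15 in untreated A, 3.43 in untreated B, 2.21 in RESTART v3 replicate 1 and 1.98 in replicate 2.

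Over the spread between libraries the same grouping was seen in the untreated cochleae. Their means were 2.86 ± 1.77 RPKM (SD, n = 2) for Irgm1, 2.32 ± 0.657 for Irgm2 and 1.68 ± 0.430 for Igtp, which overlap one another within 1 SD. Tgtp2, Tgtp1 and Iigp1 overlapped one another likewise, at 0.353 ± 0.321, 0.261 ± 0.0958 and 0.214 ± 0.197 RPKM (SD, n = 2). In the RESTART v3 cochleae the means were 7.56 ± 4.60, 5.83 ± 3.51 and 4.76 ± 2.83 RPKM for Irgm1, Irgm2 and Igtp and 2.23 ± 1.18, 1.46 ± 1.01 and 1.11 ± 0.554 RPKM for Tgtp2, Iigp1 and Tgtp1 (SD, n = 2). There the intervals of neighbouring genes overlapped throughout.

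A share within a library does not depend on how libraries are scaled to each other. Tgtp1, Tgtp2 and Iigp1 made up 7.51% of the summed RPKM of the 6 genes in untreated A and 12.4% in untreated B. They made up 20.7% in RESTART v3 replicate 1 and 21.5% in replicate 2. Both treated libraries thus held a larger effector share than both untreated ones, and the treated shares lay closer together than the untreated shares. Without Iigp1, whose length could not be matched to the annotation, the ratio of effector to regulatory RPKM was 0.0658 and 0.102 in untreated A and B and 0.176 and 0.203 in RESTART v3 replicates 1 and 2, in the same order of groups.

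**Figure D3:**
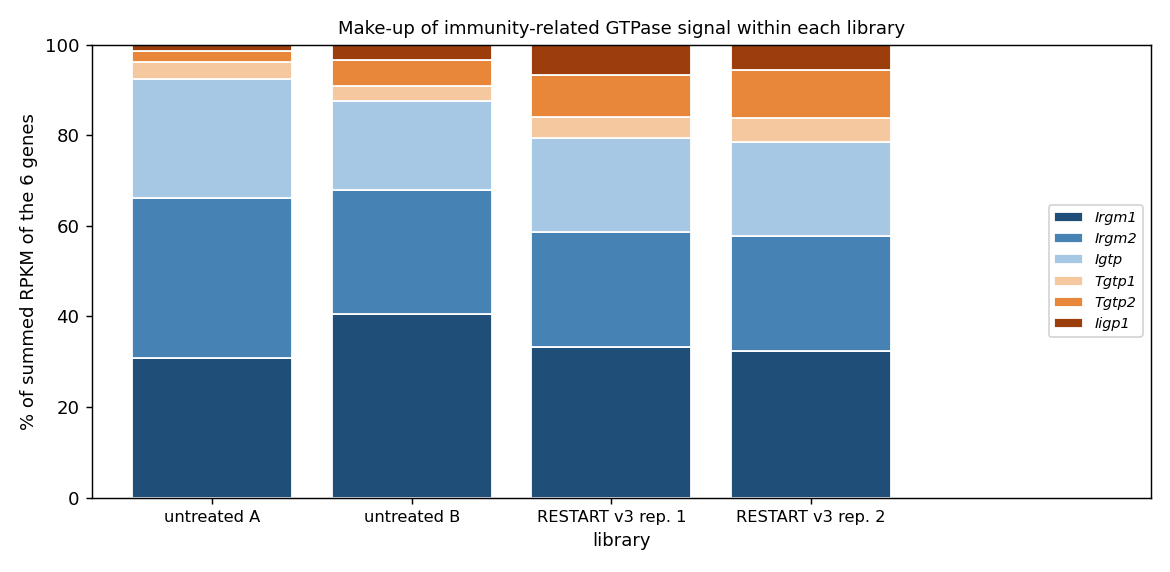
Share of each gene in the summed RPKM of the 6 immunity-related GTPases (y axis, %) in each library (x axis). Blue parts are the regulatory genes and orange to brown parts the effectors, which together take 7.51% and 12.4% in the untreated and 20.7% and 21.5% in the RESTART v3 libraries.

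The log2 ratio of 2 genes within a library shows which of them kept step. Over the 15 pairs of the 6 genes, Irgm2 and Igtp, which are neighbours on the chromosome, kept step most closely, with log2 ratios of 0.43 and 0.48 in untreated A and B and 0.30 and 0.28 in RESTART v3 replicates 1 and 2. Tgtp2 and Iigp1, which lie on different chromosomes, came next, with log2 ratios between 0.49 and 0.89. The ratio of Irgm2 to Iigp1 ranged most, from 4.63 in untreated A and 2.98 in untreated B to 1.93 and 2.16 in the RESTART v3 libraries.

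Tgtp1 and Tgtp2 are near-identical copies, and how reads that fit both were assigned is not given in the sources used here, so their separate values are uncertain. Tgtp2 took 39.8% of the reads of both genes in untreated A (exact binomial 95% interval 29.5% to 50.8%, 88 reads) and 64.2% in untreated B (59.0% to 69.1%, 360 reads). In RESTART v3 replicates 1 and 2 it took 67.4% (65.4% to 69.3%, 2270 reads) and 66.1% (63.0% to 69.2%, 901 reads). Untreated A stood apart from the other libraries beyond counting error. The sum of both genes was 0.319 and 0.909 RPKM in the untreated and 4.57 and 2.11 RPKM in the RESTART v3 libraries. A long noncoding gene, Gm42074, overlaps Tgtp1 in the annotation, and with 2, 5, 29 and 13 reads in untreated A and B and RESTART v3 replicates 1 and 2 it held far fewer reads than Tgtp1.

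Other genes of the family were read from a list of 16 names, of which 7 are listed in the table. In the test over all genes, 0 of the 2 tested (Gm12250 and Irgq) were called. Of the 7, 4 as deposited and 5 after scaling had both RESTART v3 libraries above both untreated ones. Over all listed genes the share was 2.24% and 16.2%. The median log2 difference of the 7 was 0.36 as deposited and 0.37 scaled, which lay 0.39 and 0.37 above the median of all listed genes. For the 2 tested it was 0.24 and 0.45, against -0.41 and -0.20 for all tested genes. These 2 lay on opposite sides of 0 as deposited, at 1.47 for Gm12250 and -0.98 for Irgq. Gm12250 reached the minimum mean only through the RESTART v3 libraries (mean 2.16 RPKM, against 0.433 untreated), so nothing is read from this median.

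Gm12250 (Irgb10), an effector that attacks bacterial membranes, was at 0.171 and 0.696 RPKM in untreated A and B and 3.11 and 1.20 RPKM in RESTART v3 replicates 1 and 2. The groups did not overlap, and the log2 difference was 1.47 with a standard error of 0.66 (limma, Benjamini-Hochberg adjusted p = 0.998). With voom on recovered reads it was 2.75 with a standard error of 0.59 (adjusted p = 0.771).

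Gm4841, the listed gene next to Iigp1, was at 0.0406 and 0.156 RPKM in the untreated and 0.883 and 0.373 RPKM in the RESTART v3 libraries. Gm5431 was at 0.0595 and 0.267 against 0.600 and 0.387 RPKM, and Gm12185 at 0.0101 and 0.0336 against 0.265 and 0.0873 RPKM. Groups did not overlap in any of these 3 genes, all of them too low in RPKM to be tested. The fifth, 9930111J21Rik1, was at 0.0197 and 0.0870 RPKM in untreated A and B and 0.169 and 0.0577 RPKM in RESTART v3 replicates 1 and 2, so its groups overlapped as deposited, though not after scaling.

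The remaining 2 did not share this order. Irgc1, a family member of the testis, had 5 and 3 reads in untreated A and B and 5 and 2 reads in RESTART v3 replicates 1 and 2. Irgq, a divergent member, was at 6.37 and 4.12 RPKM in the untreated and 3.57 and 1.49 RPKM in the RESTART v3 libraries, with both treated values below both untreated ones. Its log2 difference was -0.98 with a standard error of 0.79 (limma, Benjamini-Hochberg adjusted p = 0.998). The median of all tested genes was -0.41 on that scale, and the share of all listed genes in this lower order was not computed.

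The members lie in 4 runs of neighbouring genes. Ifi47 (Irgd), a further GTPase of the family that follows Tgtp2, was at 0.122 and 0.435 RPKM in the untreated and 1.23 and 0.483 RPKM in the RESTART v3 libraries, and its groups did not overlap. The pseudogene BC023105, after Iigp1, was at 0.124 and 0.0751 RPKM against 0.492 and 0.206 RPKM, again without overlap. The tRNA gene n-TLaag6, before Irgm1, was at 11.1 and 5.80 RPKM against 3.43 and 7.59 RPKM, with overlap. The long noncoding gene Gm51898, after Irgm2, had 7, 29, 80 and 40 reads in untreated A and B and RESTART v3 replicates 1 and 2.

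Protein-coding neighbours outside the family, looked up after values had been seen, numbered 7. Of these, 0 as deposited and 2 after scaling had both RESTART v3 libraries above both untreated ones, beside 2.24% and 16.2% of listed genes. Their scaled log2 differences ran from -0.26 to 0.90. The highest belonged to Psme2b, which encodes a proteasome activator subunit and lies between Irgm1 and Tgtp1. It was at 0.591 and 1.65 RPKM in the untreated and 2.68 and 1.40 RPKM in the RESTART v3 libraries.

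Likeness of pattern was measured as the root-mean-square difference, over the 4 libraries, between a tested gene's centred scaled log2(RPKM + 0.5) values and the mean of the 6 genes. The mean pattern was -0.88 and -0.58 in untreated A and B and 0.83 and 0.62 in RESTART v3 replicates 1 and 2. Among the nearest genes were Gbp3 (0.124), Gbp2 (0.126), Slfn1 (0.126) and Gm12250 (0.142). The median difference over all tested genes was 0.927. For comparison the 6 genes themselves lay between 0.0750 (Iigp1) and 0.219 (Tgtp2) from their mean. With 4 libraries this is a description of these libraries only.

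**Figure D4:**
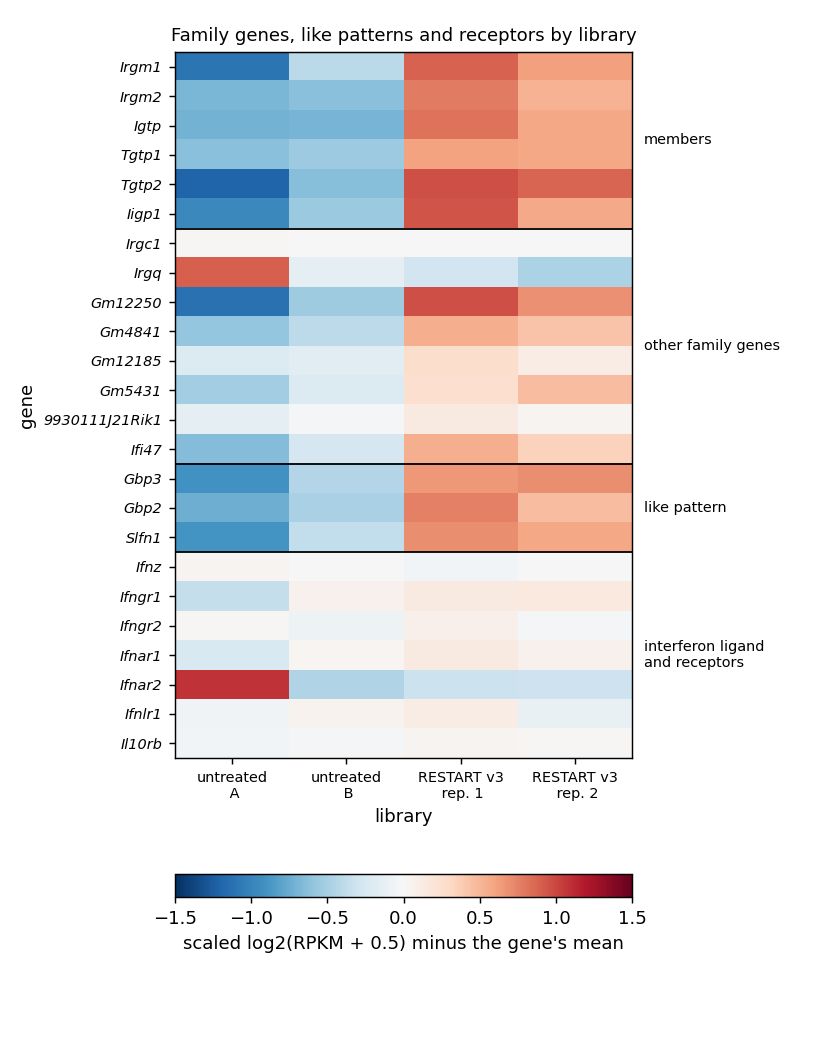
Scaled log2(RPKM + 0.5) of each gene (rows) minus its mean over the 4 libraries (columns), with red above and blue below the mean. The 6 genes, most other family genes and the genes of like pattern are blue in both untreated and red in both RESTART v3 libraries. Irgq and Ifnar2 are highest in untreated A. The 6 genes were selected on this contrast and the genes of like pattern by nearness to them, so nothing is read from the colours of either.

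Interferons act through surface receptors, and of 18 listed names for ligands and receptors, 7 are in the table. The ligands Ifng, Ifnb1 and the alpha interferons are not among the listed genes and were not analysed here. The single ligand listed, Ifnz, had 2, 2, 1 and 1 reads in untreated A and B and RESTART v3 replicates 1 and 2, which is too few to compare. Of the 7 genes, 4 were tested and 0 called. Higher RESTART v3 values without overlap were held by 0 as deposited and 3 after scaling, beside 2.24% and 16.2% of listed genes.

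Ifngr1, the ligand-binding chain of the interferon gamma receptor, was at 0.960 and 2.05 RPKM in untreated A and B and 2.15 and 1.07 RPKM in RESTART v3 replicates 1 and 2. Its partner chain Ifngr2 was at 0.707 and 0.894 against 1.05 and 0.454 RPKM. As deposited the groups overlapped in both genes. After scaling they did not overlap in Ifngr1, at 1.04 and 1.56 against 1.66 and 1.68 scaled RPKM.

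Ifnar1, a chain of the type I interferon receptor, was at 0.869 and 1.61 RPKM in the untreated and 1.75 and 0.803 RPKM in the RESTART v3 libraries. The other chain, Ifnar2, was highest in untreated A, at 2.55 RPKM, against 0.820 in untreated B and 0.933 and 0.465 RPKM in RESTART v3 replicates 1 and 2. Ifnlr1 and Il10rb, which form the lambda interferon receptor, had log2 differences of -0.04 and -0.13 as deposited and 0.00 and 0.06 after scaling.

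Among 19 genes of interferon signalling and the interferon regulatory factors, all listed, 11 were tested and 0 called. Non-overlapping higher values with RESTART v3 were seen in 4 as deposited and 9 after scaling, beside 2.24% and 16.2% of listed genes. The median over the tested ones was 0.31 as deposited, against -0.41 for all tested genes. Over the 19 listed ones, with no minimum, it was 0.12, against -0.03 for all listed genes.

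Irf7, a factor of the type I interferon response, was at 6.37 and 4.09 RPKM in the untreated and 10.4 and 7.95 RPKM in the RESTART v3 libraries, without overlap. Irf9, a further factor of that response, was at 3.53 and 4.29 against 6.88 and 3.83 RPKM, with overlap as deposited. Irf2, which counters Irf1, was at 14.6 and 20.5 against 27.4 and 10.1 RPKM, also with overlap. After scaling neither overlapped, with 3.80 and 3.26 against 5.32 and 6.04 scaled RPKM for Irf9 and 15.8 and 15.6 against 21.2 and 16.02 for Irf2.

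Guanylate-binding proteins are larger GTPases that load onto the same vacuoles. Of 15 names 12 are listed, 3 were tested and 0 called. Higher values with RESTART v3 without overlap were found in 10 of 12 as deposited and 12 of 12 after scaling. The share over all listed genes was 2.24% and 16.2%. Gbp7 was at 0.313 and 1.30 RPKM in untreated A and B and 4.25 and 1.78 RPKM in RESTART v3 replicates 1 and 2. Gbp3 was at 0.421 and 1.08 against 2.96 and 1.51 RPKM, and Gbp2 at 0.351 and 0.715 against 2.53 and 0.960 RPKM. All 3 were lowest in untreated A and highest in RESTART v3 replicate 1 as deposited, while after scaling Gbp3 was highest in replicate 2, at 2.39 against 2.29 scaled RPKM.

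Conjugation proteins of autophagy are needed for these GTPases to reach vacuoles. All 17 genes on that list are in the table, 9 were tested and 0 called, and their median was -0.42 as deposited, beside -0.41 for all tested genes. Non-overlapping higher values with RESTART v3 were seen in 0 of 17 as deposited and 3 of 17 after scaling. That is near the share over all listed genes, 2.24% and 16.2%. Map1lc3a, a tag protein of autophagosomes, was at 40.7 RPKM in untreated A and at 12.6 in untreated B, 10.7 in RESTART v3 replicate 1 and 5.52 RPKM in replicate 2. Sqstm1, a cargo receptor, was at 9.52 and 8.37 against 8.07 and 3.98 RPKM, and Gabarapl1 at 7.03 and 8.69 against 7.89 and 4.12 RPKM.

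Reference genes of the interferon response numbered 25 of 26 names, with 12 tested and 0 called. Non-overlapping higher values with RESTART v3 were found in 16 as deposited and 20 after scaling, beside 2.24% and 16.2% of listed genes. The median of the tested ones was 0.76 as deposited. Over the 25 listed ones, with no minimum, it was 0.54, beside -0.03 for all listed genes. Isg15, a ubiquitin-like modifier, was at 5.15 and 5.18 RPKM in untreated A and B and 12.4 and 8.75 RPKM in RESTART v3 replicates 1 and 2. Ifit3, which takes part in blocking viral RNA, was at 2.83 and 4.11 against 10.2 and 6.95 RPKM. Psmb8, a subunit of the immunoproteasome, was at 6.67 and 5.03 against 10.5 and 4.31 RPKM, and its groups overlapped, unlike those of Isg15 and Ifit3.

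**Figure D5:**
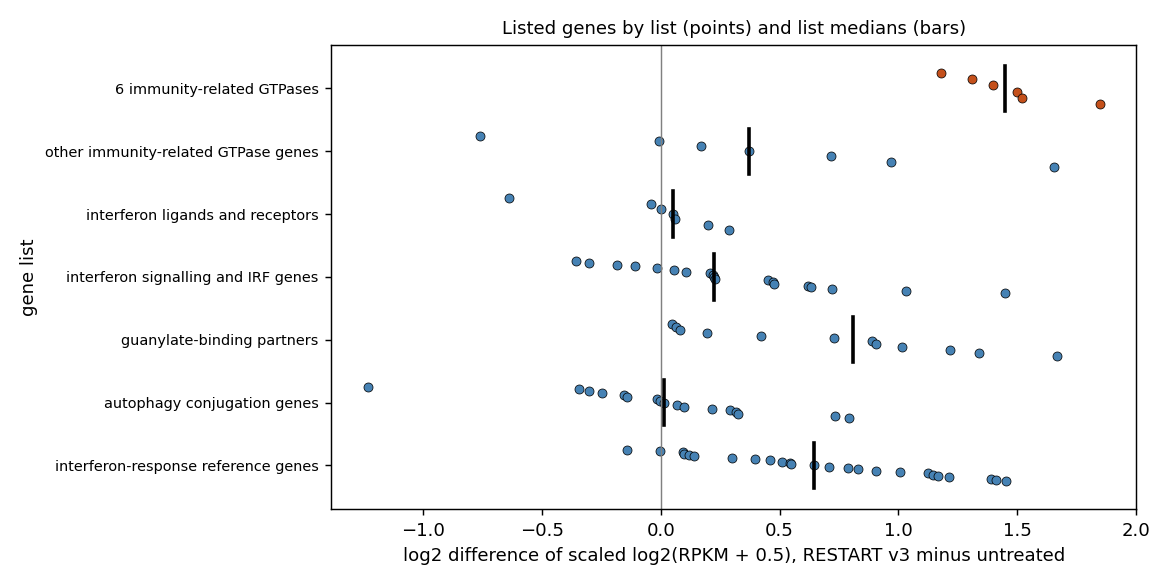
Scaled log2 difference (RESTART v3 minus untreated) of every listed gene, 1 point each, by gene list, with a bar at the list's median. The 6 immunity-related GTPases lie between 1.18 and 1.85, around a median of 1.45, and the list medians run from 0.01 for autophagy genes to 0.81 for guanylate-binding genes.

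Markers of cell types were read in the same libraries. The 12 listed markers of T and natural killer cells summed to 2.98 and 3.39 scaled RPKM in untreated A and B and to 5.74 and 5.30 in RESTART v3 replicates 1 and 2. Both treated libraries were above both untreated ones for 11 of the 12 after scaling and for 3 as deposited. Over all listed genes this order was found in 16.2% and 2.24%. The markers were low, and 5 of the 12 had under 10 reads in a library, with a lowest count of 6. The exception after scaling was the T cell receptor subunit Cd3e, at 0.117 and 0.0796 against 0.126 and 0.116 scaled RPKM. Ratios of scaled group means, RESTART v3 over untreated, were 4.19 for the cytotoxic protease Gzmb and 3.45 for Cd8b1. These rested on 8 and 16 reads of Gzmb and 7 and 23 reads of Cd8b1 in untreated A and B. Klrb1c stood at 2.59, Cd3g at 2.57, Cd8a at 2.45, Gzma at 2.27, Ncr1 at 2.26 and Cd3d at 1.85. The lowest were 1.61 for Nkg7, the most abundant of the 12, 1.46 for Cd4, 1.23 for Cd3e and 1.17 for Prf1. Macrophage markers summed to 60.7 and 24.4 scaled RPKM in the untreated and 35.2 and 35.1 in the RESTART v3 libraries. Of these 10 genes, 3 were in the order of the GTPases after scaling and 0 as deposited, beside the same shares of all listed genes.

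Neutrophil markers summed to 249 and 281 scaled RPKM in untreated A and B and 425 and 241 in RESTART v3 replicates 1 and 2, with overlap. B cell markers overlapped as well, with the lowest sum, 5.54 scaled RPKM, in RESTART v3 replicate 2. Endothelial markers summed to 17.5 and 5.89 against 5.21 and 6.06 scaled RPKM. Erythroid markers were lowest in untreated A, at 112.0 scaled RPKM, against 296 in untreated B and 344 and 354 in RESTART v3 replicates 1 and 2. Scaled marker sums of hair cells were 6.03 and 3.17 in the untreated and 2.82 and 2.24 in the RESTART v3 libraries. Those of supporting cells were 80.9 and 55.0 against 46.8 and 44.5, and of stria vascularis 139 and 72.3 against 66.8 and 63.3. Spiral ganglion neurons stood at 46.3 and 39.8 against 34.5 and 32.1. Both treated sums lay below both untreated ones in each of these sets, but not every gene did. Gjb2 alone held 65.6 and 41.8 against 35.5 and 33.1 scaled RPKM of the supporting cell sums. Atp1b2 held 109 and 41.2 against 36.2 and 35.8 of those of stria vascularis. Other markers overlapped between the groups after scaling, among them Gjb6, Slc12a2, Dct, Snap25 and Myo6. The share of all listed genes in this lower order was not computed. Schwann cell sums overlapped, at 29.5 and 16.2 against 13.9 and 24.9. The part of any of these cells in the values of the 6 GTPases was not tested.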

How the data were processed

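The study's methods describe cochlear total RNA freed of ribosomal RNA (the labels give polyA RNA) and stranded libraries of which read 2 alone was used. The submitters' notes name cutadapt 4.2 for trimming, UMI-tools 1.0.0 for molecular identifiers after duplicate removal, STAR 2.7.10b as aligner, GRCm39 as genome, SAMtools 1.14 as filter and HTSeq 1.14 as counter. The strand setting of the counting is not given in the sources used here. The deposited table holds an RPKM value for each gene in each library, made by the authors. The methods state that genes whose replicates differed by a log2 ratio above 1 were dropped, but all 6 members exceed that ratio between the RESTART v3 libraries (1.06 to 1.54), and Tgtp2 and Iigp1 also between the untreated ones (2.21 and 2.24), so the filter that was applied is unclear. Genes outside the table are not analysed here. No value is 0.

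Whole reads were recovered from the RPKM values: with 4 whole library totals, 100% of the 21230 genes gave reads within 0.001 of a whole number. The length was that annotated on GRCm38.p6, used here only for names, lengths, gene types and gene order, for 11568 genes, a multiple within 1% of it for 5040, and the smallest that gives whole reads for 4622. Iigp1 is among the last (36449 bases, against 19019 annotated), and its recovered reads, like those of Gm5431, could be an exact fraction of the true ones. Counting intervals cover counting error only.

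Samples were grouped by their labels. Genes that reached a mean of 1 RPKM were tested with limma 3.58.1 in R 4.3.3 on log2(RPKM + 0.5), lmFit and eBayes with trend, 2-sided, with Benjamini-Hochberg adjustment at 0.05. The p-values measure only the spread between these libraries. The alternatives were pseudocounts of 0.1 and 1, a minimum mean RPKM of 0.3 or none, median-of-ratios and quantile scaling, a robust prior, voom on recovered reads with a mean of at least 10, and each library left out. The fits were tested on simulated data.

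The 6 members, the 6 gene lists and the rules were chosen with earlier results of these data known. Named genes are the members, every listed gene of the family and of the ligand and receptor lists, the 3 genes of highest mean RPKM in each other list, the nearest listed neighbours of each run of members and the 5 tested genes of most like pattern. An item covered by these rules is not reported here. A planned search of promoters for interferon response motifs was not run, since no sequence was used here.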

Additional observations from a re-analysis of the deposited data

How the results depend on the processing

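The log2 differences of all 6 members stayed above 0 under 20 of 20 alternatives. In each, the RESTART v3 libraries used lay above the untreated ones used in 6 of 6 members. As the groups did not overlap with all libraries, leaving a library out could not change this order. Another pseudocount, filter or prior could not change it either. The members had been selected on this contrast, so nothing is read from its persistence. The members' median relative to all tested genes was 1.62, between 1.23 (no filter) and 2.04 (pseudocount of 0.1) with all libraries, and from 1.33 to 2.30 with a library left out. Without a filter 12 genes were called in place of 0, 11 of them lower with RESTART v3. With a library left out the number called ran from 0 to 8564. It was 3 as deposited, 2335 after scaling and 8564 with voom without untreated library B, where untreated A alone stands for its group and is assumed to vary like the other group, and 2 with voom without RESTART v3 replicate 1. The voom fit without untreated library B thus called 8564 of 18448 genes (3826 higher and 4738 lower), and in it the lists held 6 calls of 6 tested for other immunity-related GTPases (5 higher), 2 of 6 for ligands and receptors (1 higher), 9 of 19 for signalling and regulatory factors (6 higher), 10 of 12 for guanylate-binding genes (10 higher), 11 of 17 for autophagy (8 higher) and 13 of 24 for reference genes (12 higher). In every other fit with a library left out, save the scaled one without untreated library B, each list held 0 calls. The cause was not tested. From log2(RPKM + 0.5) to reads, which changes both the scaling and the weight of the pseudocount, Tgtp1, Tgtp2 and Iigp1 moved most, from 1.05 to 2.33, 1.66 to 3.21 and 1.38 to 3.26. With quantile scaling alone Irgm1 went from 1.24 to 1.71 and Tgtp1 from 1.05 to 1.23. The lowest member difference was 0.47, for Irgm2 as deposited without RESTART v3 replicate 1. No paired analysis was possible because both untreated columns carry the same name and no replicate number. With 2 libraries a group and a lowest member count of 35 reads, small differences were not detectable.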
